A study of Mus musculus with 12 samples.

Results

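The RNA levels of 10 genes of activin and TGF-beta signaling were followed over normal eyes, tumor-like lesions of the eye and medulloblastomas of mice. The genes were chosen by their symbols as ligands (*Inhba*, *Inhbb*, *Tgfb1*, *Tgfb2*, *Tgfb3*), the secreted antagonist *Fst* and receptors (*Acvr1b*, *Acvr1c*, *Acvr2a*, *Tgfbr2*), and all 10 were present among the 770 genes of the panel. Expression was measured with the nCounter Mouse PanCancer Pathways panel, in which colour-coded probes count RNA molecules without amplification. The 12 samples were fresh frozen tissue, each from a single animal.

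The *RBS* lesions (*n* = 5) were eyes of E18.5 embryos of the genotype Rax-creERT2::Ctnnb1(ex3)Fl/+SmoM2Fl/+, from dams given tamoxifen at E8.5. In these mice a Cre that works only with tamoxifen is driven by the *Rax* promoter and turns on stabilized beta-catenin and active Smo, that is Wnt and Shh signaling, in *Rax*-expressing cells of the early eye. Control eyes (*n* = 4) came from E18.5 embryos with the same floxed alleles, Ctnnb1(ex3)Fl/+SmoM2Fl/+, and without the Cre. The labels do not say whether the dams of these embryos received tamoxifen, and the methods call the control eyes of the protein measurements those of littermates. Shh-MBs (*n* = 3) were hindbrain tumors of 14-day-old hGFAP-cre::SmoM2Fl/+ mice, in which the human *GFAP* promoter drives Cre in neural precursors and only the active Smo is switched on. Lesions and control eyes were taken whole, with cells in which the *Rax* promoter was never active. Between eyes and tumors the tissue, the age and the genotype all differ, and these cannot be told apart here.

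Activins are dimers of the chains encoded by *Inhba* and *Inhbb*, and the 3 TGF-beta ligands are encoded by *Tgfb1*, *Tgfb2* and *Tgfb3*. A ligand binds a type II receptor, such as *Acvr2a* for activins and *Tgfbr2* for TGF-beta, which phosphorylates a type I receptor, such as *Acvr1b* or *Acvr1c* for activins, and the type I receptor then phosphorylates Smad2 and Smad3. Follistatin, the product of *Fst*, binds activin outside the cell and blocks it. In the developing eye, TGF-beta from the lens and surface ectoderm is known to act on the neural crest mesenchyme of the cornea and the anterior segment, and activin from the mesenchyme around the optic vesicle is known to favor pigment epithelium over neural retina.

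Values are the deposited normalized signal on the linear scale, and differences are log2 differences of the group means of log2(signal + 1). The depth, estimated from the step between low values, was between 335392 and 716684 counts per sample, lowest in RBS 1, and between 52 and 123 genes of a sample sat at its lowest value, which was between 1 and 1.64. Of the 10 genes, 7 had a mean signal of 20 or more over the 12 samples. *Acvr1c*, *Inhba* and *Inhbb* did not, and their values rest on few counts. Of the genes that define eye tissue only *Fgf15*, a gene of the neural retina, is on the panel. Its signal was 835 to 1094 in control eyes. It was 74.6 to 152 in the lesions, and no more than 4.9 in any tumor. The summed signal of 4 genes of the cerebellar granule lineage was 4649 to 5599 in Shh-MBs and 1126 to 2226 in the eyes. In such bulk tissue, fewer cells of a type and less RNA per cell cannot be told apart.

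**Figure D1:**
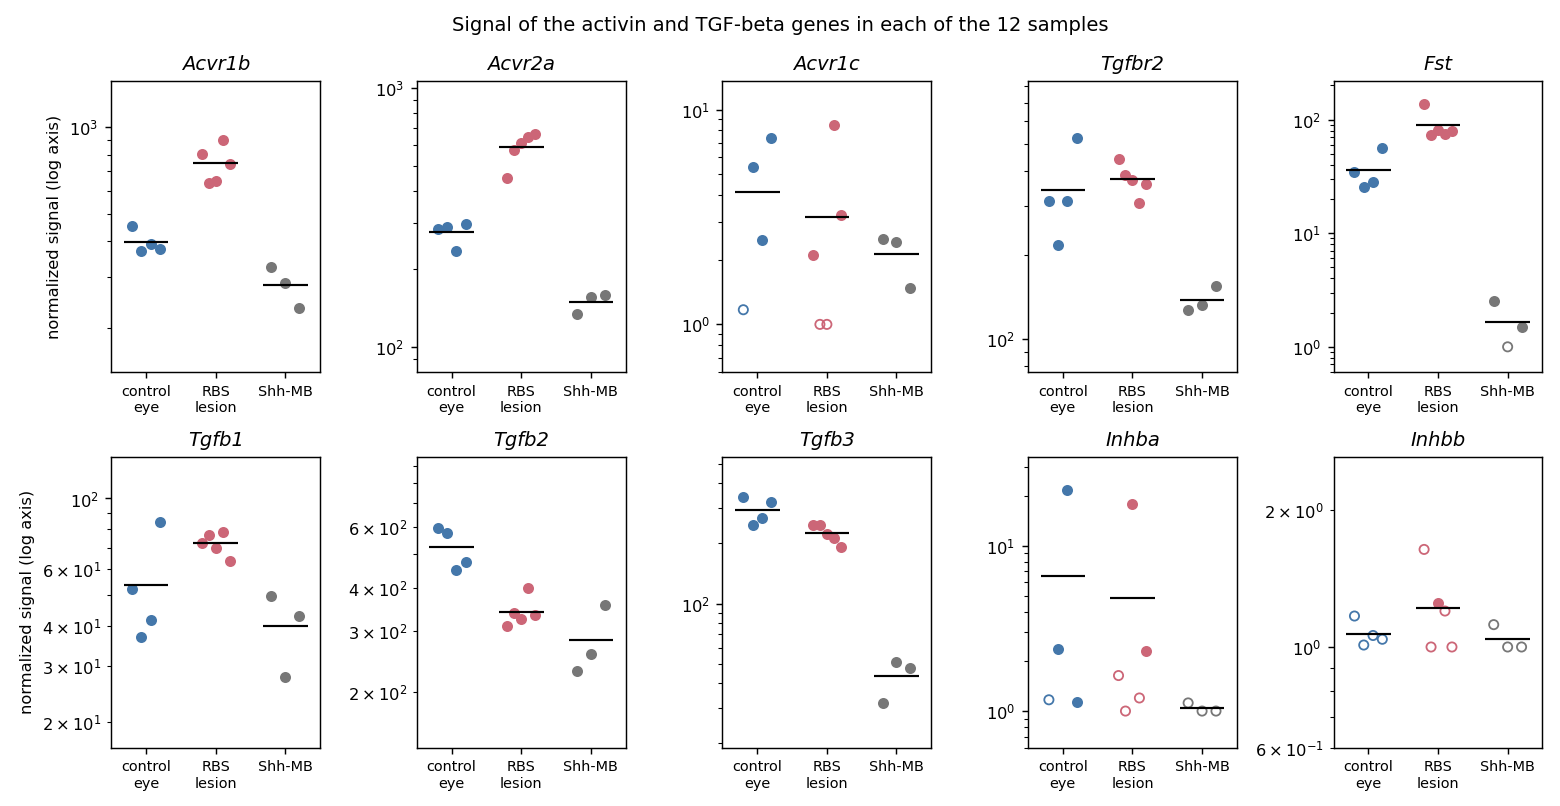
Normalized signal of each of the 10 genes (log axis, one panel per gene) in 4 control eyes, 5 *RBS* lesions and 3 Shh-MBs. Each point is 1 sample, open points lie at the lowest value of their sample and black lines are group means. *Acvr1b*, *Acvr2a* and *Fst* are highest in *RBS* lesions without overlap, while *Inhba*, *Inhbb* and *Acvr1c* lie at or near the lowest value in most samples.

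The activin receptors *Acvr1b* and *Acvr2a* and the antagonist *Fst* stood higher in the *RBS* lesions than in the control eyes, by 1.87-fold, 2.11-fold and 2.47-fold, and the ligands *Tgfb2* and *Tgfb3* were lower, *Tgfb2* by 1.53-fold and *Tgfb3* by 1.30-fold. Thus 5 of the 10 genes passed the test in this comparison (limma, adjusted *p* under 0.05 over all 770 genes). Over the whole panel the share was 51.2%, with 33.0% of genes higher and 18.2% lower in *RBS* lesions, so a share of 5 in 10 is that of the panel and no result about these genes. Groups did not overlap in 4 of the 10 genes, beside 43.4% of all genes. The median difference of the 10 genes was 0.14 and that of all genes 0.17.

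Of the receptors, *Acvr1b* encodes the type I activin receptor also called ALK4. Its signal was 451, 370, 393 and 376 in control eyes and 806, 641, 647, 902 and 740 in *RBS* lesions. The highest control eye lay well below the lowest lesion. On the log2 scale the rise was 0.90 (standard error 0.125, adjusted *p* = 0.000351, limma; exact permutation *p* = 0.00794, two-sided, the smallest that 5 against 4 samples allow). *Acvr2a*, the type II receptor for activins, had a signal of 286, 289, 234 and 298 in control eyes and of 449, 574, 614, 643 and 663 in *RBS* lesions. All lesions were above all control eyes, with RBS 1 the nearest to them. On the log2 scale *Acvr2a* differed by 1.08 (standard error 0.135, adjusted *p* = 0.000191, limma).

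The stretches of 250 bases before the start sites of both receptor genes and of *Tgfb2* are shown because these 3 genes moved in opposite directions between the eyes. The sequences are RefSeq entries of build GRCm38.p6, of which 8 of the 10 genes have one, and *Fst* and *Tgfb3* have none in the table used. Each is written 5' to 3' on the strand of its gene, up to the base before the start site, with matches to the searched motifs in capitals. *Acvr1b* is chr15:101173822-101174071 on the plus strand, *Acvr2a* is chr2:48813859-48814108 on the plus strand and *Tgfb2* is chr1:186705990-186706239 on the minus strand.
Acvr1b: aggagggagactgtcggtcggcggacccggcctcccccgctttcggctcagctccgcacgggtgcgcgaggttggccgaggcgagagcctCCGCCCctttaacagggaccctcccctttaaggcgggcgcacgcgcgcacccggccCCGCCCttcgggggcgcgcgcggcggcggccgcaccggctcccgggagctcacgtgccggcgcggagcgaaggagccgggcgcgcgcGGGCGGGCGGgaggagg
Acvr2a: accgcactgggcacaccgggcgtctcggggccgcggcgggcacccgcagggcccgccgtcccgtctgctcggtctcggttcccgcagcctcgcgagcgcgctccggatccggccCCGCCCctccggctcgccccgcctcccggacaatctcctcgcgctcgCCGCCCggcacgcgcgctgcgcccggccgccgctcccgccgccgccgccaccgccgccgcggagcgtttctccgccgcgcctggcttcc
Tgfb2: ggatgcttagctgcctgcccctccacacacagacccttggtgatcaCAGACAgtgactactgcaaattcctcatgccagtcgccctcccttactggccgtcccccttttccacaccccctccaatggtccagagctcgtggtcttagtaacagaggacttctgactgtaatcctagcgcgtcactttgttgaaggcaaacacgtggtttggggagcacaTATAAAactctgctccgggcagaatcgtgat

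These letters were searched on both strands, and a match is a description of the window only. The capitals in *Acvr1b* and *Acvr2a* are GC boxes (GGGCGG, or CCGCCC on the other strand). *Acvr1b* holds 4 of them, of which the last and the one before overlap, and *Acvr2a* holds 2. This motif lies in 32.7% of the 32851 RefSeq promoter windows of the same length. *Tgfb2* holds no GC box but a TATA box (TATAAA) from base -31 to -26 before the start site, a motif found in 12.4% of windows. It also holds a Smad box (CAGACA), the short motif that Smad3 and Smad4 bind, from base -204 to -199, which 17.1% of windows hold. The GC content was 78.8% for *Acvr1b*, 82.0% for *Acvr2a* and 53.6% for *Tgfb2*, beside a median of 52.4% over all windows. The TCF/LEF core ATCAAAG, which 3.21% of windows hold, and the Gli core GACCACCC, which 0.703% hold, had no match in the windows of these genes. The same was true of the Smad palindrome GTCTAGAC, present in 0.167% of windows.

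*Fst* had a signal of 34.6, 25.7, 28.0 and 56.3 in control eyes and of 137, 73.8, 80.6, 74.8 and 80.1 in *RBS* lesions. The lesions were all above the control eyes, and RBS 1 stood above the other lesions. *Fst* thus rose by 1.31 on the log2 scale (standard error 0.262, adjusted *p* = 0.00276, limma). Without RBS 1 it was 1.14, and in all 9 fits that left out 1 eye the adjusted *p* was at most 0.0103.

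*Tgfb2*, the ligand whose loss in mice is known to disturb the cornea and lens region, had a signal of 597, 576, 451 and 476 in control eyes. In *RBS* lesions it was 311, 339, 326, 399 and 335, so that every lesion was below every control eye. *Tgfb2* thus fell by 0.61 on the log2 scale (standard error 0.118, adjusted *p* = 0.00226, limma). *Tgfb3*, a ligand known for its part in palate fusion, was at 340, 247, 269 and 322 in control eyes and at 248.3, 248.6, 223, 213 and 192 in *RBS* lesions. Here the groups overlapped, since 2 lesions were slightly above control eye 2. Its log2 difference amounted to -0.38 (standard error 0.128, adjusted *p* = 0.0326, limma), and this call was lost with centring on housekeeping genes (adjusted *p* = 0.0711), with all 12 samples in 1 fit (adjusted *p* = 0.0664) and without any 1 of control eyes 1 and 4 or RBS 3, 4 and 5 (adjusted *p* between 0.0603 and 0.091).

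*Tgfb1*, the ligand best known from immune cells and wound healing, was at 52.2, 36.9, 41.8 and 84.4 in control eyes and at 72.7, 77.0, 70, 78.4 and 63.6 in *RBS* lesions. Control eye 4 was above every lesion and the other control eyes were below every lesion. The log2 difference of 0.49 did not pass (standard error 0.218, adjusted *p* = 0.0921, limma). Without control eye 4 it was 0.73 and passed (adjusted *p* = 0.00225), as it did with centring on housekeeping genes (0.58, adjusted *p* = 0.0373).

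*Tgfbr2*, the type II receptor for TGF-beta, was at 313, 217, 311 and 523 in control eyes and at 440, 387, 372, 306 and 358 in *RBS* lesions. The lesions lay inside the range of the control eyes. The log2 difference was 0.19 (95% interval -0.33 to 0.71, adjusted *p* = 0.526, limma), and it turned to -0.03 with quantile normalization and to -0.0008 without control eye 2.

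The activin chains were hardly measured in the eyes. *Inhbb* sat at the lowest value in 4 of 4 control eyes and in 4 of 5 *RBS* lesions, and RBS 3 was at 1.25. *Inhba* was at 1.17, 2.39, 21.6 and 1.13 in control eyes and at 1.64, 1.0, 18.0, 1.2 and 2.31 in *RBS* lesions. A signal well above the lowest value was thus seen in control eye 3 and in RBS 3 and in no other eye. *Acvr1c*, the type I receptor also called ALK7, was at 1.17, 5.43, 2.47 and 7.38 in control eyes and at 2.1, 1.0, 1.0, 8.49 and 3.23 in *RBS* lesions. None of these 3 genes passed the test (adjusted *p* between 0.485 and 0.856, limma), and the 95% intervals of the log2 differences were -1.61 to 0.86 for *Acvr1c*, -2.19 to 1.76 for *Inhba* and -0.14 to 0.32 for *Inhbb*.

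**Figure D2:**
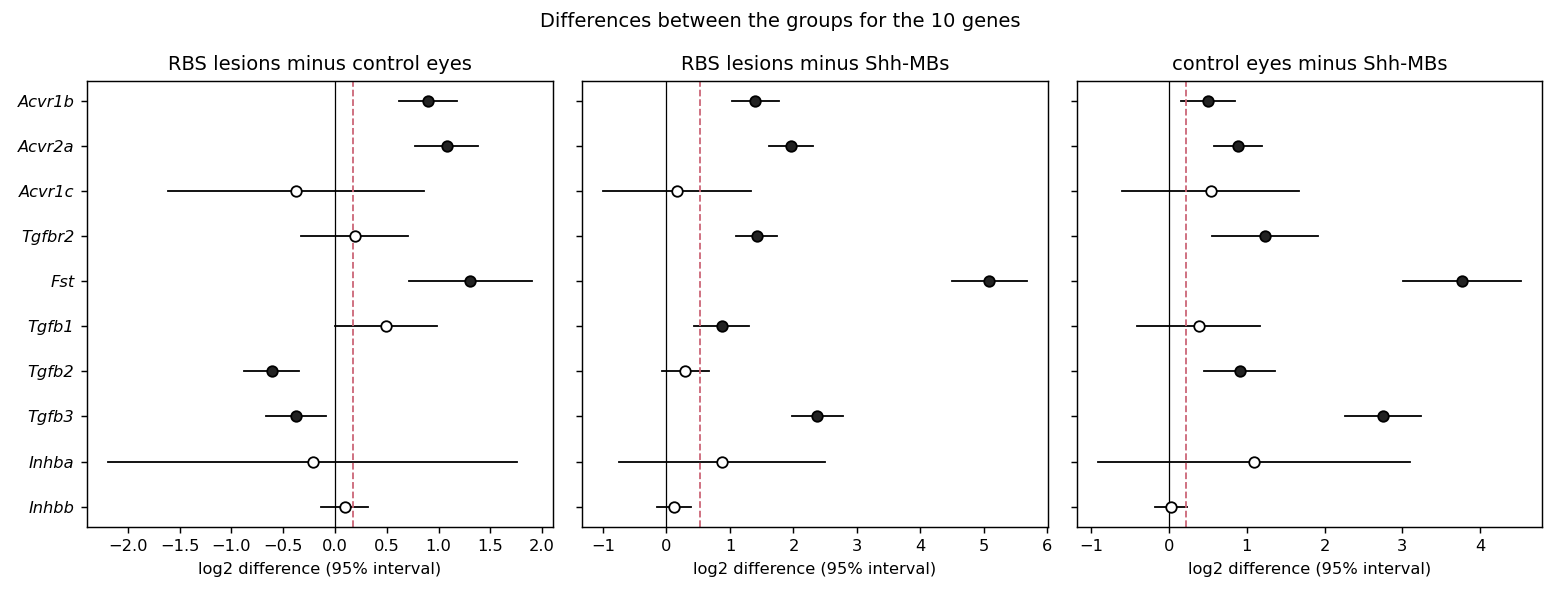
Log2 differences of the 10 genes (x axis, with 95% intervals from limma) for *RBS* lesions minus control eyes, *RBS* lesions minus Shh-MBs and control eyes minus Shh-MBs. Filled points passed at an adjusted *p* under 0.05 and the dashed line is the median of all 770 genes, at 0.17, 0.53 and 0.22.

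The ratio of 2 genes within a sample does not depend on how samples are scaled to each other. The log2 ratio of *Acvr2a* to *Tgfb2* was -1.06 to -0.68 in control eyes, 0.53 to 0.98 in the lesions and -1.17 to -0.73 in the tumors. For *Acvr1b* to *Tgfb2* it was -0.64 to -0.20 in control eyes, 0.92 to 1.38 in the lesions and -0.61 to 0.49 in the tumors. Both ratios set a gene that rose in *RBS* lesions over one that fell, so that their gap between the eyes follows from the values above, while control eyes and tumors overlapped. For *Acvr2a* to *Acvr1b* the eyes overlapped, at -0.75 to -0.34 in control eyes and -0.85 to -0.08 in the lesions, as they did for *Tgfbr2* to *Acvr2a*, at -0.41 to 0.81 and -1.07 to -0.03. The log2 ratio of *Tgfb3* to *Tgfb2* was instead set apart in Shh-MBs, at -2.92 to -2.34, while control eyes at -1.22 to -0.56 and *RBS* lesions at -0.90 to -0.32 overlapped. Because probes differ in efficiency, a ratio shows unequal change between groups and not which gene has more RNA.

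**Figure D3:**
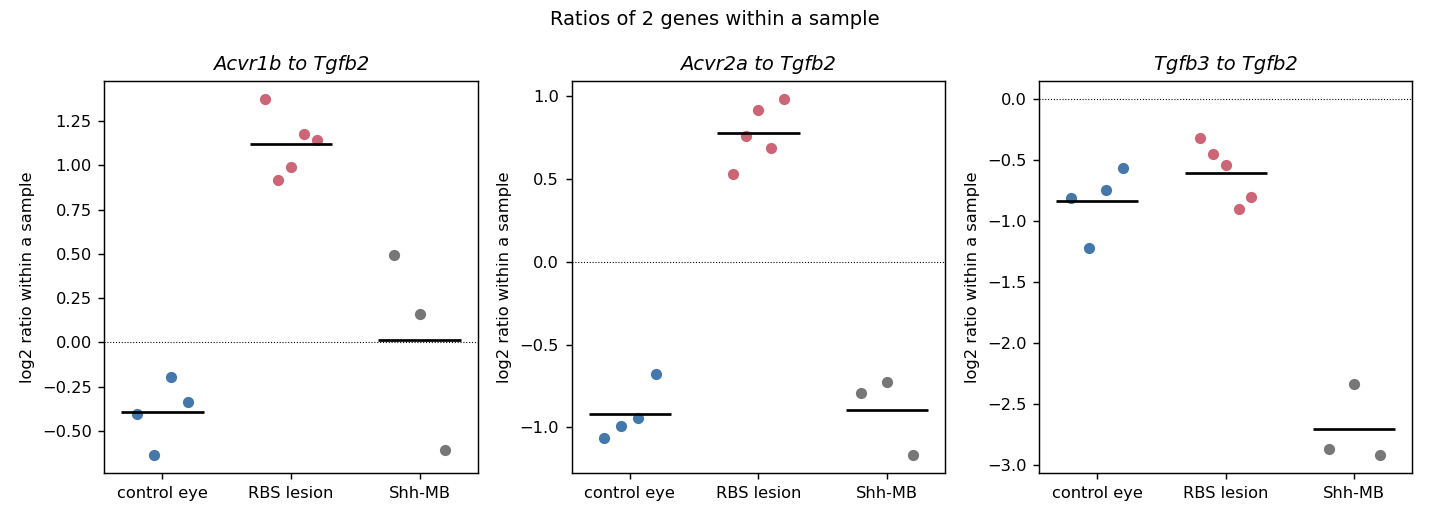
Log2 ratio of the signals of 2 genes within each sample (y axis) for control eyes, *RBS* lesions and Shh-MBs. Points are samples and lines are group means. The ratios to *Tgfb2* of *Acvr1b* and *Acvr2a* are highest in all 5 *RBS* lesions, and that of *Tgfb3* is lowest in all 3 Shh-MBs.

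Markers of other cell types moved between the same eyes. The summed signal of 7 neuron genes was 775 to 954 in control eyes and 2595 to 3398 in *RBS* lesions, that of 9 genes of surface epithelium and lens 545 to 806 and 789 to 1245, and that of 6 blood and immune genes 136 to 208 and 253 to 305. The sum of 7 fibroblast and mesenchyme genes was 25546 to 57829 in control eyes and 19843 to 36410 in *RBS* lesions. In the test, 6 of 7 neuron genes, 4 of 9 epithelial genes and 2 of 6 blood genes were higher in *RBS* lesions and none of these was lower, while 2 of 7 mesenchyme genes were lower and none was higher. Since 33.0% of all genes were higher and 18.2% lower, the counts of the blood, epithelial and mesenchyme genes are near those of the panel. Of these lists only the neuron and the blood genes had sums without overlap between the eyes. The part of these cell types in the differences of the receptors, *Fst*, *Tgfb2* and *Tgfb3* was not tested.

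*Tgfbr2* was the one gene whose order over samples was the same as that of the mesenchyme sum in control eyes and again in *RBS* lesions, out of 28 pairs of 7 measured genes and 4 marker lists. The sum was 42778, 25546, 35270 and 57829 in control eyes 1 to 4 and 36410, 29489, 28437, 19843 and 27428 in RBS 1 to 5. *Fst* and *Tgfb1* followed this order in control eyes alone, as they and *Tgfbr2* followed that of the blood and immune sum. Per 1000 units of mesenchyme signal, *Tgfbr2* was at 7.31 to 9.04 in control eyes and at 12.1 to 15.4 in *RBS* lesions, and these ranges did not overlap although those of its signal did. The same held for *Tgfb1*, at 1.18 to 1.46 and 2.0 to 3.95. *Acvr1b*, at 6.5 to 14.5 and 21.7 to 45.4, and *Acvr2a*, at 5.15 to 11.3 and 12.3 to 32.4, were apart on this scale as on that of the signal. *Fst* was at 0.793 to 1.01 and 2.5 to 3.77 on this scale, while *Tgfb3* at 5.57 to 9.66 and 6.82 to 10.8 and *Tgfb2* at 8.23 to 22.6 and 8.53 to 20.1 overlapped. The sum itself had a median of 39024 in control eyes and 28437 in *RBS* lesions, and a lower sum raises every value on this scale. Shh-MBs, with the lowest sums, stood highest on it, at 62.8 to 85.9 for *Tgfbr2* and 13.2 to 33.6 for *Tgfb1*. With 4 and 5 samples these orders and scaled values are a description without a test.

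**Figure D4:**
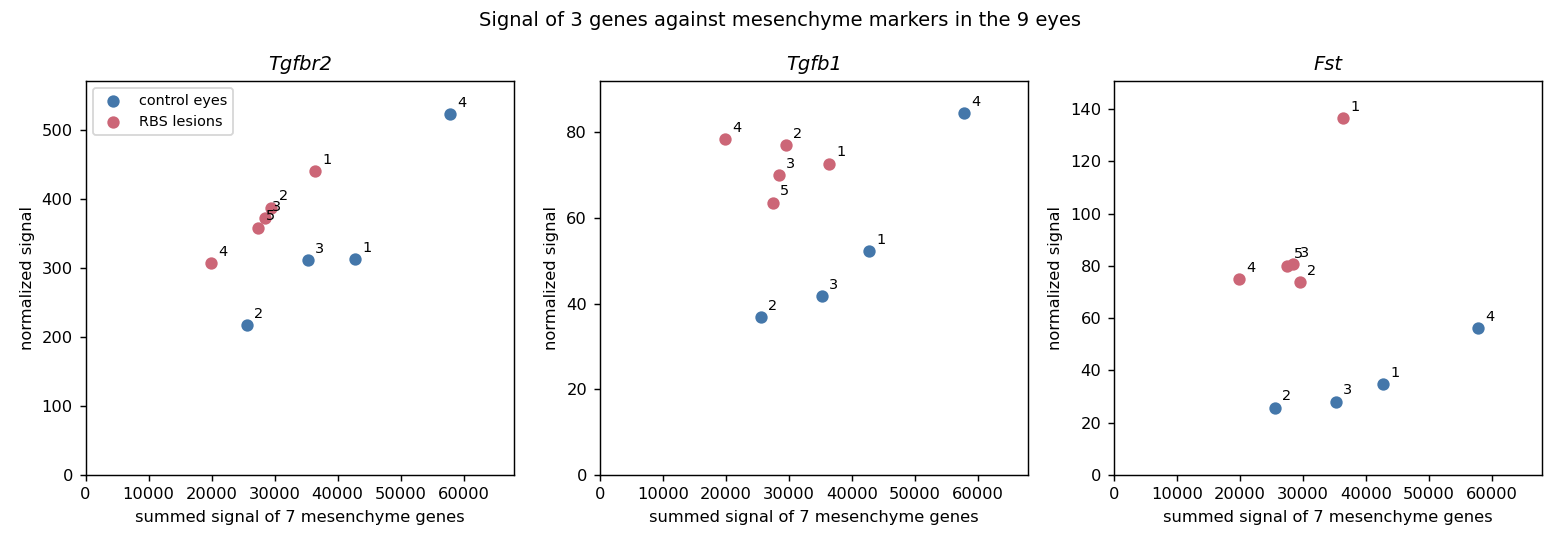
Signal of *Tgfbr2*, *Tgfb1* and *Fst* (y axes) against the summed signal of 7 fibroblast and mesenchyme genes (x axes) in 4 control eyes and 5 *RBS* lesions, with the sample numbers beside the points. *Tgfbr2* rises with the sum within each group, and at a like sum the lesions lie above the control eyes.

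Compared with Shh-MBs, 6 of the 10 genes were higher in *RBS* lesions and none was lower (limma, adjusted *p* under 0.05). The share of all genes called was 60.8%, with 48.1% higher and 12.7% lower, and with median centring the panel turned to 23.5% higher and 41.4% lower, while 5 of the 10 genes were higher and 2 lower. Groups did not overlap in 6 genes, beside 59.9% of all genes. The median difference was 1.14 for the 10 genes and 0.53 for all genes. Control eyes minus Shh-MBs gave 6 higher and 0 lower too, beside 41.0% of all genes called (31.4% higher and 9.61% lower), and 2 of these 6 genes were left with median centring, where 18.1% of all genes were higher and 40.4% lower. In that comparison 7 of the 10 genes did not overlap, beside 48.2% of all genes, and 1 of these 7 was *Inhba*, at the lowest value in each tumor. Control eye 1 was also at its own lowest value for *Inhba*, 1.17, and control eye 4 was at 1.13, beside 1.12 in Shh-MB 1. The median was 0.89 for the 10 genes and 0.22 for all genes. Both comparisons use the same tumors, and the former shares its lesions with the comparison of the eyes.

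*Fst* was at or near the lowest value in the tumors. Its signal was 2.51, 1.0 and 1.48 in Shh-MBs, of which the second is the lowest value, against 25.7 or more in each of the 9 eyes. On the log2 scale the gap was 5.08 for *RBS* lesions (standard error 0.257, adjusted *p* = 2.53e-06, limma) and 3.77 for control eyes (standard error 0.317, adjusted *p* = 0.000133, limma). Since the tumors are near the lowest value these differences depend on the number added before the log, and the former was 3.79 with 5 added. With values under 20 set to 20, the former was 2.06, and the latter was 0.75 and did not pass (adjusted *p* = 0.0912). With this setting the differences of *Tgfb3* were larger than those of *Fst*, at 2.37 and 2.75.

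*Tgfb3* was at 31.6, 51.1 and 47.3 in Shh-MBs, below every eye. It was 5.18-fold higher in *RBS* lesions (log2 difference 2.37, standard error 0.176, adjusted *p* = 1.41e-05, limma; 1.53 with median centring and 1.43 with quantile normalization) and 6.74-fold higher in control eyes (2.75, standard error 0.204, adjusted *p* = 7.93e-05, limma). After centring on the sample median, *Tgfb3* at 2.09 and *Fst* at 3.11 were the genes of the 10 that still passed as higher in control eyes than in the tumors.

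*Acvr2a* had a signal of 134, 156 and 159 in Shh-MBs and *Acvr1b* one of 325, 288 and 235. Both were below all eyes. *Acvr2a* was higher by 1.96 in *RBS* lesions (standard error 0.15, adjusted *p* = 1.73e-05, limma; 1.11 with median centring) and by 0.88 in control eyes (standard error 0.127, adjusted *p* = 0.0016, limma), the latter falling to 0.21 (adjusted *p* = 0.337) with median centring. *Acvr1b* was higher by 1.40 in *RBS* lesions (standard error 0.161, adjusted *p* = 0.000136, limma), and by 0.55 with median centring (adjusted *p* = 0.0115). Its difference of 0.50 between control eyes and Shh-MBs (adjusted *p* = 0.0306, limma) turned to -0.17 with median centring, and it kept its call in 1 of the 7 fits without 1 sample, that without Shh-MB 1.

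*Tgfbr2* was at 127, 132 and 155 in Shh-MBs, again below all eyes. *RBS* lesions exceeded them by 1.42 (standard error 0.138, adjusted *p* = 5.28e-05, limma), which was 0.58 with median centring (adjusted *p* = 0.0181), and control eyes by 1.23 (standard error 0.287, adjusted *p* = 0.0135, limma), the latter lost with median centring (0.57, adjusted *p* = 0.118) and quantile normalization (0.86, adjusted *p* = 0.0648). The mesenchyme sum was 1476 to 2099 in Shh-MBs, far below that of the eyes, and the epithelial sum was 76.5 to 136, with *Calml3* and *Itga2* at the lowest value in each tumor. Of the 7 mesenchyme genes, 6 were called higher in *RBS* lesions and 6 in control eyes, beside 48.1% and 31.4% of all genes. The other 1, *Pdgfra*, was called lower in both, with means of 982 in Shh-MBs, 483 in *RBS* lesions and 349 in control eyes. The part of these cell types in the differences from the tumors was not tested.

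*Tgfb1* was at 49.5, 27.7 and 43.0 in Shh-MBs, below all *RBS* lesions but overlapping with the control eyes. It was higher in *RBS* lesions by 0.87 (standard error 0.186, adjusted *p* = 0.00372, limma), which was 0.03 with median centring (adjusted *p* = 0.898) and turned to -0.22 with quantile normalization (adjusted *p* = 0.126). The difference of 0.38 for control eyes did not pass (adjusted *p* = 0.414, limma), and it turned to -0.29 with median centring and -0.58 with quantile normalization. *Tgfb2* was at 231, 258 and 358 in Shh-MBs. Control eyes were all above them, by 0.91 (standard error 0.189, adjusted *p* = 0.0083, limma), a call lost with median centring (0.24, adjusted *p* = 0.398), whereas *RBS* lesions overlapped with them (0.30, 95% interval -0.08 to 0.67, adjusted *p* = 0.144, limma). That difference was called higher without Shh-MB 3 (0.48, adjusted *p* = 0.0191) and called lower with median centring (-0.55, adjusted *p* = 0.0395).

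Each of the 3 tumors had *Inhba* and *Inhbb* at its lowest value, and *Acvr1c* was at 2.51, 2.41 and 1.48. No fold is given for the activin chains, since the tumors are at that value and the eyes are at or near it, except for *Inhba* in control eye 3 and RBS 3. *Inhbb* was called lower in the eyes with median centring (-0.73 and -0.64). Its values were at the lowest level in nearly all samples, and centring shifts such values by the median of each sample. The cause of this call was not tested.

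The order of levels over the 3 groups took 5 forms among the 7 measured genes. *Acvr1b*, *Acvr2a* and *Fst* were highest in *RBS* lesions, lower in control eyes and lowest in Shh-MBs, with each neighbour told apart by the test. *Tgfb3* was highest in control eyes, then in *RBS* lesions, then in Shh-MBs, again with each neighbour told apart. *Tgfb2* was highest in control eyes, and *RBS* lesions and Shh-MBs could not be told apart. *Tgfbr2* was lowest in Shh-MBs with no difference called between the eyes. For *Tgfb1* no neighbours were told apart, only *RBS* lesions from Shh-MBs. The steps that rest on a scaling or on single samples are those named above.

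The spread between samples also differed. *Tgfb1* had a coefficient of variation of 39.8% in control eyes and 8.2% in *RBS* lesions, and *Tgfbr2* of 37.9% and 13.0%. *Fst* varied by 38.7% and 30.0%. Single samples moved these spreads, since without control eye 4 they were 17.9% for *Tgfb1*, 19.4% for *Tgfbr2* and 15.6% for *Fst*, and in the lesions that of *Fst* was 4.55% without RBS 1 and that of *Tgfb1* 5.2% without RBS 5. For *Acvr1b*, *Acvr2a*, *Tgfb2* and *Tgfb3* it was between 9.28% and 14.8% in both groups of eyes, and without 1 sample it fell as far as 2.18%, for *Acvr2a* without control eye 3. Control eye 4 held the highest signal of *Fst*, *Tgfb1* and *Tgfbr2* among control eyes, and it also had the highest sums of mesenchyme, epithelial and blood genes and the lowest sum of neuron genes.

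For the 4 genes with the widest range of group means among those called, the panel genes of most similar pattern were taken as those with the smallest root mean square of the log2 difference over the 12 samples, after each gene was centred on its own mean. The 12 samples share 3 groups, so such likeness holds group differences first. For *Acvr2a* these included *Jak2*, a cytokine receptor kinase (0.187), and *Prkar2b*, a regulatory subunit of protein kinase A (0.24). *Tgfbr2* was nearest to *Ghr*, the growth hormone receptor (0.155), *Socs1* (0.258) and *Prkdc* (0.304). *Tgfb3* was nearest to the ligand *Bmp7* (0.271), the glypican *Gpc4* (0.28) and *Wnt5b* (0.319). *Fst* had no gene as near, its first being the transcription factor *Gata3* (0.371), followed by the ligands *Wnt7b* (0.53) and *Wnt2b* (0.532).

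The other genes of the pathway on the panel were counted from lists of general knowledge, which do not hold every gene of the pathway, and each count is to be read beside the shares of the panel. These were 33.0% higher and 18.2% lower between the eyes, 48.1% and 12.7% for *RBS* lesions against Shh-MBs, and 31.4% and 9.61% for control eyes against Shh-MBs. Of 11 other ligands of the family, 2 rose and 2 fell from control eyes to *RBS* lesions, with a median difference of -0.12. *Bmp5* was at 14.0 ± 6.73 (SD, *n* = 5) against 3.51 ± 2.28 (SD, *n* = 4), a log2 difference of 1.76 (adjusted *p* = 0.00926, limma), and *Bmp2* was higher by 0.65 (adjusted *p* = 0.0106, limma). *Gdf6*, a ligand known from eye malformations, was at 10.2 ± 5.21 against 45.0 ± 9.05, a difference of -2.18 (adjusted *p* = 0.00123, limma), and *Bmp6* was lower at -0.60 (adjusted *p* = 0.0116, limma). The signals of *Bmp5* rest on few counts. With values under 20 set to 20 its difference was 0.02 and did not pass (adjusted *p* = 0.557), and that of *Gdf6* was -1.11 (adjusted *p* = 0.000221). Against Shh-MBs 4 of the 11 were higher in *RBS* lesions and 0 lower, with a median of 0.97, *Bmp4* at 3.27, *Bmp2* at 3.23 and *Bmp7* at 2.42, while median centring gave 4 higher and 4 lower. Control eyes had 5 higher and 1 lower than Shh-MBs, with a median of 1.37, and the lower one was *Bmp5*, at -2.73, which was -0.41 and did not pass with values under 20 set to 20 (adjusted *p* = 0.156). With median centring 5 were higher and 3 lower.

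Of 2 other receptors, *Tgfbr1*, the type I receptor for TGF-beta also called ALK5, was at 775 in *RBS* lesions, at 749 in control eyes and at 320 in Shh-MBs, as group means. It did not pass between the eyes (log2 difference 0.05, adjusted *p* = 0.661, limma), where quantile normalization turned it to -0.17 (adjusted *p* = 0.044), and it was higher in the eyes than in Shh-MBs by 1.27 for *RBS* lesions (adjusted *p* = 1.41e-05, limma) and 1.23 for control eyes (adjusted *p* = 0.000113, limma). *Bmpr1b*, a type I receptor for BMPs, exceeded control eyes in *RBS* lesions by 1.11 (adjusted *p* = 0.00562, limma) and Shh-MBs by 2.09 (adjusted *p* = 0.00106, limma). *Bambi*, which encodes a pseudoreceptor that dampens signaling of this family, is in none of the lists and was chosen after its values were seen. It was lower in the lesions against control eyes, at -0.97 (adjusted *p* = 0.00209, limma).

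Among 5 extracellular binders and matrix activators, 1 rose and 2 fell from control eyes to *RBS* lesions, with a median of -0.37. *Nog*, which encodes the BMP antagonist noggin, was higher by 1.26 (adjusted *p* = 0.00539, limma), while the thrombospondins *Thbs4* and *Thbs1* were lower, at -2.61 and -0.96 (adjusted *p* = 0.000183 and 0.00404, limma). *Thbs1* is known to free TGF-beta from its latent form, and *Ltbp1* encodes a protein that anchors that form in the matrix. Against Shh-MBs 4 of the 5 were higher in *RBS* lesions and 4 in control eyes, *Ltbp1* by 4.29 and 4.67, with list medians of 3.90 and 4.67. *Ltbp1* was at 4.7 to 13.4 in the tumors, and with values under 20 set to 20 its differences were 3.28 and 3.66.

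Of 10 Smads and Smad co-factors, 4 rose and 2 fell from control eyes to *RBS* lesions, with a median of 0.23 beside 0.17 for all genes, and with median centring 1 rose and 3 fell. The share of all genes with that centring is not given here for the eyes, so the turned counts are no result about this list. *Smad1*, which carries BMP signals, was higher by 0.61 (adjusted *p* = 0.00047, limma), the acetyltransferase gene *Ep300* by 0.40 and *E2f5* by 0.37, while *Sp1* was lower at -0.33 and *Tfdp1* at -0.20. The Smads of activin and TGF-beta did not pass, *Smad2* at 0.16 (adjusted *p* = 0.153, limma) and *Smad3* at -0.10 (adjusted *p* = 0.406, limma), nor did their partner *Smad4* at -0.08 (adjusted *p* = 0.586, limma). These small differences depend on the scaling, since *Smad3* was called lower with median centring (-0.28, adjusted *p* = 0.0187) and quantile normalization (-0.28, adjusted *p* = 0.0057), *Smad4* was called lower with quantile normalization (-0.36, adjusted *p* = 0.0299) and *Smad2* higher with housekeeping centring (0.25, adjusted *p* = 0.0323), while the sign of *Smad2* turned with median centring and quantile normalization and that of *Smad4* with housekeeping centring. Against Shh-MBs, 5 were higher and 2 lower in *RBS* lesions, and 2 and 5 with median centring. *Smad2* was higher by 1.19 in *RBS* lesions and by 1.03 in control eyes (adjusted *p* = 1.76e-05 and 0.000185, limma), and *Smad3* was lower at -0.59 and -0.48 (adjusted *p* = 0.00125 and 0.0181, limma). Between control eyes and the tumors, the call of *Smad2* was lost with median centring (0.37, adjusted *p* = 0.0661) and that of *Smad3* without Shh-MB 3 (-0.41, adjusted *p* = 0.0587). Control eyes had 3 higher and 1 lower than the tumors, which turned to 0 higher and 6 lower with median centring, and the medians against them were 0.32 for *RBS* lesions and 0.18 for control eyes.

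Of 9 genes that TGF-beta or activin signaling is known to induce, 1 rose and 4 fell in the lesions against control eyes, with a median of -0.08. *Cdkn2b*, an inhibitor of the cell cycle, was higher by 1.34 (adjusted *p* = 0.000168, limma). Its signal was low, at 8.47 to 11.5 in control eyes and 18.7 to 33.3 in *RBS* lesions. With values under 20 set to 20 the difference was 0.38 (adjusted *p* = 0.0455, limma). Among those that fell were *Thbs1*, as given above, and the collagen gene *Col1a2* at -0.91 (adjusted *p* = 0.0202, limma). Against Shh-MBs 8 of the 9 were higher in *RBS* lesions and 6 in control eyes, and none was lower, with medians of 3.61 and 4.67. In this list 3 collagen genes are also among the mesenchyme markers, with *Col1a1* higher by 6.39 and 7.30, so the list and the mesenchyme sum cannot be told apart for them. RNA levels of these genes are not a measure of Smad2 or Smad3 phosphorylation, which was not measured here.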

How the data were processed

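RNA of 5 *RBS* lesions, 4 control eyes and 3 Shh-MBs was measured on the nCounter Mouse PanCancer Pathways panel (SPRINT Profiler). The authors normalized the data with nSolver and its Advanced Analysis module, and deposited a normalized, linear signal for 770 genes. Whether a background was subtracted and which reference genes were used is not given in the sources used here, and whole counts could not be recovered. Many genes of a sample share its lowest value. Depth was estimated as total signal over the step between low values and lay between 335392 and 716684 counts, which limits precision for low values.

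Values were analysed as log2(signal + 1) of all 770 genes without a filter. Groups were compared in pairs (3 comparisons) using limma (version 3.58.1, R 4.3.3; two-sided) with Benjamini-Hochberg adjustment over all genes and a threshold of 0.05. Exact permutation tests over samples were run in R as well, and summaries and figures were made in Python 3.11.15. The steps were tested on simulated data with 200 changed genes. The labels name 1 animal per sample.

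The 10 genes and the marker and pathway lists were chosen with earlier results of these data known. Named genes were these 10, for each list up to 3 genes per direction with the largest difference among those that passed without overlap, and the 3 most similar genes for 4 of the 10; single genes that this rule names are not all reported here. *Smad2*, *Smad3*, *Smad4* and *Tgfbr1* between the eyes were named in addition for their role. Alternatives were other scalings (sample median, housekeeping genes, quantile, total without the 3 most abundant genes), a pseudocount of 5, values under 20 set to 20 or left out, limma with trend, all 12 samples in 1 fit, the methods' t-test, exact permutation, the replicate number as a block and leaving out each sample. The methods' t-test was run here as a Welch test without the permutations that the methods name, so its results can differ from those of the authors. For the coefficient of variation, leaving out each sample was chosen after seeing the data. Promoter windows are RefSeq sequences of build GRCm38.p6. The human samples and proteins of the study were not analysed here.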

Additional observations from a re-analysis of the deposited data

Results flagged for a closer look

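In 20 groups of 4 or 5 samples, a sample was compared with the rest of its group by its gap to the nearest sample, divided by the range, against Dixon's 95% critical value, which chance passes in about 1 of 20 groups. *Inhba* in control eye 3 was at 21.6, with the next control eye at 2.39. *Inhba* in RBS 3 was at 18.0, with the next lesion at 2.31. Both samples bear the number 3 in the labels, and over all genes their correlation of deviations was 0.188. *Fst* in RBS 1 was at 137, with the next lesion at 80.6. RBS 1 was also the lesion with the lowest depth and the highest mesenchyme sum.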

How the results depend on the processing

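Of the results on the 10 genes in 3 comparisons under all alternatives, 546 kept direction and side of the threshold, 47 lost and 3 gained the call in the same direction, and 25 changed sign, of which 3 were newly called and 2 lost their call. Between *RBS* lesions and control eyes, the count of 3 higher fell to 1, *Acvr2a*, with the methods' t-test and step-down Bonferroni adjustment, where *Acvr1b* (adjusted *p* = 0.0866) and *Fst* (adjusted *p* = 1.0) were lost. The count of 2 lower was 0 with that test, both *Tgfb2* and *Tgfb3* being at an adjusted *p* of 1.0. With *Tgfb3* as the lost gene, it was 1 with Benjamini-Hochberg adjustment of it, 1 with housekeeping centring, 1 with all 12 samples in 1 fit and 1 to 2 when 1 sample was left out. The labels number samples alike across groups. Deviations of same-numbered samples correlated at -0.148 to 0.188. Samples with different numbers were not compared in this way, so whether the numbers pair the samples cannot be told. The fit with this replicate block gave 1 lower gene, with *Tgfb3* at -0.32 (adjusted *p* = 0.127), and between control eyes and Shh-MBs it left 4 of the 6 higher genes, *Acvr1b* (0.53, adjusted *p* = 0.0677) and *Tgfb2* (0.95, adjusted *p* = 0.0768) losing their calls, as did *Smad3* (-0.54, adjusted *p* = 0.0712).

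For *RBS* lesions against Shh-MBs, the 6 higher fell to 3 with the Bonferroni adjustment, and median centring gave 2 lower, *Tgfb2* and *Inhbb*. For control eyes against Shh-MBs, the 6 higher became 2 with median centring, 0 with Bonferroni and 0 with exact permutation, whose smallest *p* of 0.0286 cannot pass over 770 genes here, while median centring gave 1 lower, *Inhbb*. Over all genes, higher and lower counts with Bonferroni were 41 and 31 between the eyes, 56 and 24 for *RBS* lesions against Shh-MBs, and 29 and 7 for control eyes against Shh-MBs. Median centring gave 181 and 319, and 139 and 311, for the last 2 comparisons, and quantile normalization 204 and 234, and 147 and 221.

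Signs changed as follows between *RBS* lesions and control eyes: *Inhbb* -0.088 (median centring), *Tgfbr2* -0.032 (quantile), *Smad2* -0.019 (median centring) and -0.12 (quantile), *Smad4* 0.0025 (housekeeping centring), *Tgfbr1* -0.13 (median centring), -0.17 (quantile) and -0.014 (scaling without the 3 most abundant genes), and *Inhba* -0.80 to 0.58 and *Tgfbr2* -0.0008 to 0.42 when 1 sample was left out. For *RBS* lesions against Shh-MBs, median centring gave *Acvr1c* -0.68, *Inhbb* -0.73, *Tgfb2* -0.55 and *Smad1* -0.17. Quantile normalization gave *Acvr1c* -0.59, *Inhbb* -0.0023, *Tgfb1* -0.22 and *Tgfb2* -0.25, scaling without the 3 most abundant genes gave *Acvr1c* -0.10, *Inhbb* -0.086 and *Tgfb2* -0.079, the replicate block gave *Acvr1c* -0.42, and leaving out 1 sample gave *Acvr1c* -0.20 to 0.36. For control eyes against Shh-MBs, median centring gave *Acvr1b* -0.17, *Acvr1c* -0.13, *Inhbb* -0.64, *Tgfb1* -0.29 and *E2f5* -0.37, quantile normalization *Acvr1c* -0.35, *Inhbb* -0.0057, *Tgfb1* -0.58 and *E2f5* -0.10, and scaling without the 3 most abundant genes *Inhbb* -0.14 and *E2f5* -0.014. The cause of these changes was not tested. For *Acvr1c*, *Inhba* and *Inhbb* values at the lowest level limit what can be measured.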
